A study of Mus musculus with 24 samples.

Results

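The comparison described here is the difference between db/db and db/+ mouse liver among animals given brazzein, a sweet-tasting protein (3M-Brazzein in the series' design text). Its members are the liver libraries whose titles name brazzein, 2 titled db/db and 2 titled db/+, which are 4 of the 12 liver libraries and of the 24 libraries of the series. The db/db animals lack the signalling form of the leptin receptor in all tissues, and db/+ animals carry 1 working copy. The animals of both genotypes were male, of the strain given as C57/BL6, and received brazzein, with a treatment entry of 16 weeks and no dose or age in the labels. The other 8 livers came from both genotypes on water or sucrose, 2 libraries each. The study was set up to look at brain and liver after sucrose or brazzein intake. Genotype was taken from the titles. The separate genotype entry reads db/db for all 4 brazzein livers and so contradicts the title of both db/+ ones. Over all 12 livers, 6 titles contradict that entry, so some water or sucrose livers are affected too. Nothing in the labels says whether the 2 libraries of a group are separate animals, so every p-value here measures only the spread between libraries.

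Leptin, made by fat cells, acts on the brain to limit food intake, and animals without its receptor overeat and become obese, insulin resistant and fatty in the liver. In such a liver, high insulin drives the genes that turn sugar into fat, and receptors and droplet proteins that take up and store lipid become abundant. Male and female mouse livers also differ in a large set of secreted proteins and cytochrome P450 enzymes that follow the pulse pattern of growth hormone acting through the factor STAT5.

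Values are in CPM, that is, deposited estimated counts as a rate per library total, with totals scaled by edgeR's TMM factors. Totals were 66844892 and 78257943 estimated counts at the extremes of the db/db brazzein pair and 60384569 and 62783623 in the db/+ pair. A sum over 14 hepatocyte markers came to 112400 and 115600 CPM in db/+ and 122400 and 113300 CPM in db/db, with all 14 detected. Fold changes are log2 of db/db over db/+ from the edgeR fit of all 12 livers, in which 19352 genes were tested. The standard error (SE) beside them was derived, as the size of the log2 divided by the square root of the test's F statistic. For genes at or close to 0 CPM in a group this SE is unreliable. Replicates correlated at 0.915 in the db/db and 0.905 in the db/+ brazzein pair, below the 0.924 to 0.957 of the other 4 liver groups. Mitochondrial ribosomal RNA took a different share of the counts in the genotypes, at 0.302% and 0.332% in db/db against 0.867% and 0.578% in db/+, and its part in the results was not tested. On water and sucrose the share ran from 0.263% to 0.336% in db/db and from 0.892% to 1.289% in db/+.

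On brazzein, 179 genes were higher (0.925% of those tested) and 126 lower (0.651%) in db/db liver, together 305 or 1.58%, by edgeR's quasi-likelihood test at an adjusted p under 0.05. Fat synthesis, fat storage and sugar-use genes were among the higher ones, and male-biased secreted proteins and P450 enzymes, C8b, C3 and Igfbp2 among the lower ones. The size of the called differences had a median of 2.54 on the log2 scale, and the smallest was 0.56. An unadjusted p under 0.05 was reached by 3380 genes (17.5%), and DESeq2 called 1912 of the 19352 genes on the same brazzein contrast. Without db/db brazzein replicate 2 the brazzein count was 131, and a fit of the 4 brazzein livers alone called 0 genes by edgeR (1900 at an unadjusted p under 0.05) and 983 by DESeq2. For all 305 called genes the 2 db/db values lay outside the 2 db/+ values, as they did for 43.9% of all genes tested.

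**Figure D1:**
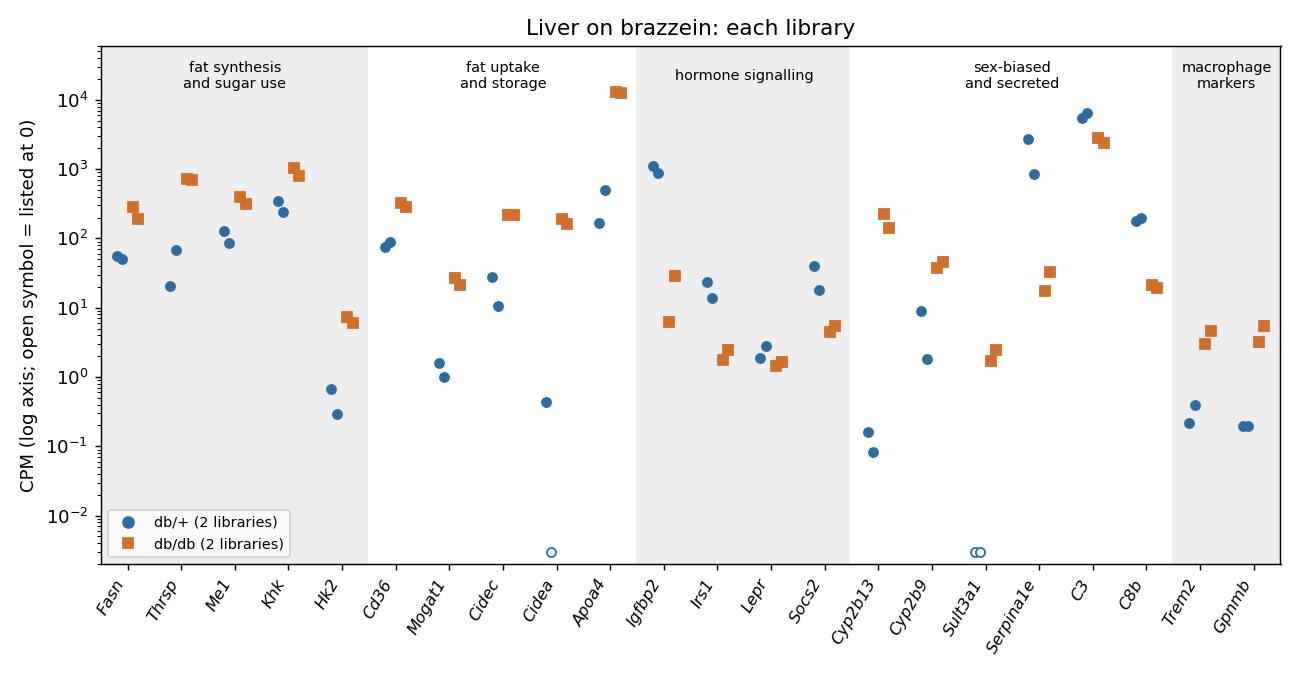
Expression in each of the 4 brazzein livers (CPM, log axis), with circles for the 2 db/+ and squares for the 2 db/db libraries, open where a gene is listed at 0. Fasn, Mogat1 and Trem2 lie higher in both db/db libraries, and Igfbp2 and Serpina1e lower. Irs1 is plotted without its near-identical copy.

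Genes of fat synthesis were higher in db/db. Of 24 tested, 4 rose and 0 fell, with a list median of 1.12 on the log2 scale against -0.03 over all genes. Without overlap, 16 of the 24 lay higher and 1 lower, where 43.9% of all genes tested did not overlap in either direction. Fasn, fatty acid synthase, stood at 55.3 and 50.5 CPM in db/+ (replicates 1 and 2, the order used throughout) and at 286 and 194 CPM in db/db. Both db/db libraries were above both db/+ libraries (log2 2.18 with SE 0.28, edgeR adjusted p = 0.0131). Thrsp, which encodes a nuclear protein tied to lipogenic transcription, held 20.9 and 67.7 against 726 and 697 CPM (log2 4.01 with SE 0.57, edgeR adjusted p = 0.0182). Me1 and Tkt make NADPH for fat synthesis, by malic enzyme and in the pentose phosphate pathway. Me1 held 126 and 85.2 against 393 and 311 CPM (log2 1.74, edgeR adjusted p = 0.0298), and Tkt 126 and 69.7 against 303 and 270 CPM (log2 1.55, edgeR adjusted p = 0.0291). The call of Fasn held in all 12 fits that left out 1 library, that of Thrsp in 11 (adjusted p = 0.0575 without db/db brazzein replicate 2), that of Me1 in 5 (up to 0.0849, without db/+ brazzein replicate 2) and that of Tkt in 3 (up to 0.0747, without db/db brazzein replicate 2).

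Other lipogenic genes did not pass the test. Scd1, the desaturase that makes oleate, held 1649 and 1774 against 12930 and 7725 CPM (log2 2.59 with SE 0.63, edgeR adjusted p = 0.0909), so its groups did not overlap. Acly, which makes cytosolic acetyl-CoA, held 39.9 and 47.1 against 98.8 and 52.6 CPM (edgeR adjusted p = 0.236). For Srebf1, the gene of the lipogenic factor SREBP1, the groups overlapped, at 16.6 and 38.9 against 26.5 and 56.9 CPM (edgeR adjusted p = 0.701). Acaca, acetyl-CoA carboxylase, was low in all 4 brazzein livers, between 0.119 and 0.205 CPM. It was also low in the 4 other db/+ livers, at 0.0346 to 0.590 CPM, and in db/db water replicate 2, at 0.0879 CPM, while the other 3 db/db livers held 16.95 to 34.3 CPM.

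Sugar-use genes moved in the same direction, with 4 of 32 higher, 0 lower and a list median of 0.57. Khk, ketohexokinase, which commits fructose to metabolism, held 352 and 243 CPM in db/+ and 1051 and 794 CPM in db/db (log2 1.63 with SE 0.26, edgeR adjusted p = 0.0272). Hk2, a hexokinase scarce in normal liver, was under 1 CPM in db/+ at 0.663 and 0.294 and held 7.35 and 6.04 CPM in db/db (log2 3.80 with SE 0.58, edgeR adjusted p = 0.0248). Pfkfb4, which sets the fructose bisphosphate signal, held 0.448 and 0.359 against 1.65 and 1.55 CPM (log2 1.98, edgeR adjusted p = 0.0443). Gapdh, the glycolytic dehydrogenase, held 460 and 428 against 1150 and 821 CPM (log2 1.15 with SE 0.19, edgeR adjusted p = 0.0298). In all these the db/db pair lay above the db/+ pair, but the calls were fragile: Hk2 held in 9 of the 12 fits without 1 library, Khk in 4, Gapdh in 3 and Pfkfb4 in 0, with adjusted p up to 0.0685, 0.0773 and 0.0820 for Hk2, Khk and Gapdh without db/+ brazzein replicate 2 and up to 0.127 for Pfkfb4 without db/db brazzein replicate 2. Pklr, liver pyruvate kinase, held 32.3 and 39.1 against 192 and 173 CPM and did not pass (log2 2.35, edgeR adjusted p = 0.0679).

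The promoter of Khk is shown because it holds CACGTG, a core of the E-boxes bound by basic helix-loop-helix factors, among them factors that respond to sugar. The sequence is the 250 bases before the gene's start from RefSeq (GRCm38.p6, chr5:30921309-30921558, plus strand), printed 5′ to 3′ with the match, which begins 71 bases before the start, in capitals.
Khk: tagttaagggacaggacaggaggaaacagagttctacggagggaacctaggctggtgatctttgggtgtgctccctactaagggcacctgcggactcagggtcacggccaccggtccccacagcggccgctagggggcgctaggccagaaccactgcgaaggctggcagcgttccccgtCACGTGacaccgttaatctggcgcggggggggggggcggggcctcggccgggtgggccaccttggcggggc
Searched on both strands, which are alike for this palindrome, CACGTG was in 9.3% of the 12146 tested genes with such a promoter, in 11 of 112 genes called higher (9.82%) and in 3 of 85 called lower (3.53%). A match is a description of letters and not of a bound site.

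Some genes of fat uptake and storage were higher as well. Of 28 genes of lipid uptake and triglyceride assembly, 3 rose and 0 fell (list median 0.36), with 17 above 0 and 11 below. Their summed level overlapped, at 12720 and 9010 CPM in db/+ against 10490 and 9756 CPM in db/db. Of 20 droplet and lipolysis genes, 2 rose and 0 fell (list median 0.62, 18 above 0). Cd36, a fatty acid receptor of the cell surface, held 76.3 and 89.2 CPM in db/+ and 328 and 282 CPM in db/db (log2 1.88 with SE 0.31, edgeR adjusted p = 0.0316). Mogat1, which joins a fatty acid to monoacylglycerol, held 1.60 and 1.01 against 26.8 and 21.4 CPM (log2 4.21 with SE 0.37, edgeR adjusted p = 0.00415). Slc27a4, a fatty acid transporter and acyl-CoA synthetase, held 33.9 and 32.8 against 79.4 and 77.6 CPM (log2 1.24, edgeR adjusted p = 0.0477). In each the db/db libraries were the higher pair. The call of Mogat1 held in all 12 fits without 1 library, that of Cd36 in 4 (up to 0.0945, without db/+ brazzein replicate 1) and that of Slc27a4 in 2 (up to 0.150, without db/db brazzein replicate 2).

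Both called droplet genes belong to the CIDE family, whose proteins fuse small lipid droplets into large ones. Cidec held 27.9 and 10.5 CPM in db/+ and 219 and 220.2 CPM in db/db (log2 3.51 with SE 0.44, edgeR adjusted p = 0.0128). Cidea, scarce in lean liver, was listed at 0.430 and 0 CPM in db/+ and at 193 and 163 CPM in db/db (log2 9.71 with SE 1.79, edgeR adjusted p = 0.0453). Cidec kept its call in all 12 fits without 1 library and Cidea in 3 (up to 0.0938, without db/db sucrose replicate 1). Plin2, the common droplet coat protein, held 666 and 393 against 1009 and 1308 CPM and did not pass (log2 1.13, edgeR adjusted p = 0.109). Pparg, a nuclear receptor that induces such genes in fatty liver, overlapped between genotypes at 9.99 and 7.45 against 26.0 and 9.17 CPM (edgeR adjusted p = 0.331). Fabp4, a fatty acid carrier abundant in adipocytes, was higher in both db/db livers without passing the test, at 13.2 and 7.21 against 27.3 and 49.1 CPM (log2 1.90, edgeR adjusted p = 0.0721). Plin1, the droplet coat protein of adipocytes, lay between 0 and 0.161 CPM in the 4 brazzein livers.

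Of 24 lipoprotein genes, 2 rose and 0 fell, while the list median was -0.06. Apoa4, an apolipoprotein made by fatty liver and intestine, held 168 and 502 CPM in db/+ and 13200 and 12470 CPM in db/db (log2 5.26 with SE 0.71, edgeR adjusted p = 0.0157), a call kept in all 12 fits without 1 library. Apoc2, the activator of lipoprotein lipase, held 82.4 and 121 against 713 and 561 CPM (log2 2.65 with SE 0.40, edgeR adjusted p = 0.0235), a call kept in 6 of them (up to 0.0800, without db/+ brazzein replicate 1). Apob, the structural protein of very low density lipoprotein, overlapped at 968 and 2973 against 2635 and 2103 CPM (edgeR adjusted p = 0.823).

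Genes of fat breakdown went both ways. Among 42 oxidation and ketogenesis genes, 1 rose and 2 fell (list median 0.13). Ucp2, a mitochondrial carrier, held 19.1 and 11.2 against 56.0 and 42.4 CPM (log2 1.70, edgeR adjusted p = 0.0457, call kept in 1 of the 12 fits). The genes that fell, Cyp4a10 and Cyp4a12b, encode omega-hydroxylases of fatty acids. Cyp4a10 held 2954 and 1971 against 921 and 809 CPM (log2 -1.51, edgeR adjusted p = 0.0477, kept in 3 of 12), and Cyp4a12b 160.5 and 81.1 against 7.25 and 1.61 CPM (log2 -4.77, edgeR adjusted p = 0.0208, kept in all 12). Both calls ended when counts were summed with near-identical copies, an alternative chosen after seeing the data, with Cyp4a10 at an adjusted p of 0.0505 and Cyp4a12b at 0.0753 by edgeR. Cpt1a, which admits fatty acids to mitochondria, held 254 and 497 against 617 and 499 CPM (edgeR adjusted p = 0.538), and Ppara, the nuclear receptor of fasting, 97.1 and 207 against 93.4 and 53.8 CPM (edgeR adjusted p = 0.316).

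Signalling genes of leptin, insulin and growth hormone were mostly not called. Lepr, the receptor gene altered in the model, stood at 1.90 and 2.77 CPM in db/+ and 1.45 and 1.63 CPM in db/db on brazzein (log2 -0.60 with SE 0.53, edgeR adjusted p = 0.620). The db/db values were the lower pair, but the difference did not pass the test. On water and sucrose, Lepr was called lower, at 2.43 to 18.9 CPM in db/+ against 0.691 to 2.50 CPM in db/db (log2 -2.59, edgeR adjusted p = 0.0101), and the interaction did not pass (log2 1.98, edgeR adjusted p = 0.461). The known db lesion alters splicing of the long receptor form, so a count of the whole gene does not check the genotype labels. Of 15 genes of leptin receptor signalling and 25 of insulin signalling, 0 rose and the same gene, Irs1, was the 1 called lower, a call that ended once its copy was counted with it.

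Irs1, the docking protein that passes the insulin receptor's signal on, held 23.9 and 13.8 CPM in db/+ and 1.74 and 2.46 CPM in db/db (log2 -3.16 with SE 0.37, edgeR adjusted p = 0.0110). On water and sucrose, Irs1 ran from 22.2 to 24.2 CPM in db/+ and from 7.39 to 12.4 CPM in db/db (log2 -1.20, edgeR adjusted p = 0.0233). A gene model named Gm9747, with a transcript near-identical to that of Irs1, was listed at 7.50 and 8.94 CPM in the db/db brazzein pair and at 0 in the other 10 livers. With the counts of Irs1 and Gm9747 summed, an alternative chosen after seeing the data, the db/db brazzein livers held 9.26 and 11.4 CPM against 23.9 and 13.7 CPM in db/+. The summed level was still the lower pair in db/db, but it was not called (log2 -0.87 with SE 0.32, edgeR adjusted p = 0.231, DESeq2 0.123). It lay within the 7.41 to 12.4 CPM of the db/db livers on water and sucrose, and the interaction moved from -1.96 (edgeR adjusted p = 0.286) for Irs1 alone to 0.33 (0.835) for the sum.

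In the growth hormone and IGF axis (21 genes), 0 rose and 1 fell (list median -0.27). Igfbp2, a secreted binding protein of insulin-like growth factors that leptin is known to raise in liver, held 1113 and 879 CPM in db/+ and 6.18 and 28.9 CPM in db/db (log2 -5.83 with SE 0.78, edgeR adjusted p = 0.0157). It fell in all 12 fits without 1 library. Igf1, the growth factor itself, held 741 and 554 against 236 and 173 CPM and missed the threshold (log2 -1.66 with SE 0.32, edgeR adjusted p = 0.0527). Socs2, a feedback inhibitor induced by growth hormone through STAT5, held 40.1 and 18.3 against 4.44 and 5.46 CPM (log2 -2.56 with SE 0.64, edgeR adjusted p = 0.0973). In these 3 genes the db/db pair lay below the db/+ pair.

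Male-biased liver genes were lower in db/db. Of 32 tested, 13 fell and 0 rose, every member had a log2 below 0, and the list median was -2.68. Among the 25 members that are not major urinary proteins, 11 fell (median -1.81). Serpina1e, an antitrypsin family member made mainly by male liver, held 2714 and 840 CPM in db/+ and 17.2 and 32.8 CPM in db/db (log2 -6.15 with SE 0.83, edgeR adjusted p = 0.0157). Cyp7b1, an oxysterol hydroxylase of the acidic bile acid route, held 105 and 58.5 against 4.52 and 5.74 CPM (log2 -4.00 with SE 0.62, edgeR adjusted p = 0.0254). Both genes were low in both db/db libraries. The Serpina1e call held in 10 of the 12 fits without 1 library (up to 0.0689) and that of Cyp7b1 in 5 (up to 0.118), both least firm without db/db brazzein replicate 2. Summed with its 5 near-identical family members, Serpina1e had a log2 of -1.13 (edgeR adjusted p = 0.0119). Without db/db brazzein replicate 2 the list had 5 calls, and without it and db/+ brazzein replicate 1, an alternative chosen after seeing the data, 4.

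Major urinary proteins are pheromone carriers that male liver secretes in bulk. Of 22 tested, 7 fell and 0 rose, with a list median of -6.81. Their summed level was 78810 and 13330 CPM in db/+ and 1265 and 1764 CPM in db/db, so db/+ replicate 2 held much less than replicate 1. On water and sucrose the sum ran from 48750 to 125200 CPM in db/+ and from 1654 to 3497 CPM in db/db, which puts db/+ brazzein replicate 2 below every other db/+ liver. Mup3 held 11060 and 2345 against 575 and 626 CPM (log2 -3.48 with SE 0.63, edgeR adjusted p = 0.0432), a call kept in 2 of the 12 fits without 1 library. Without db/db brazzein replicate 2 no member of this list was called by edgeR, against 20 by DESeq2 with all libraries. Because Mup transcripts are nearly the same, how reads were shared among them is uncertain. With 16 near-identical members summed, the log2 was -7.07 and did not pass by edgeR (adjusted p = 0.0615, DESeq2 1.97e-09), nor did Mup3 summed with Mup21 (edgeR adjusted p = 0.0512).

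Female-biased genes were less uniform. Of 37 tested, 3 rose and 1 fell (list median 0.41), whereas the median on water and sucrose was 1.98, with 14 called higher and 2 lower. Cyp2b13, a P450 of female liver, held 0.161 and 0.0816 CPM in db/+ and 228 and 141 CPM in db/db (log2 10.56 with SE 1.05, edgeR adjusted p = 0.00647), a call kept in all 12 fits without 1 library. Sult3a1, a sulfotransferase, was listed at 0 in both db/+ livers and at 1.69 and 2.45 CPM in db/db (edgeR adjusted p = 0.0321). Its call held in 4 of the 12 fits. Slc22a27, an organic anion carrier, held 0.950 and 2.40 against 15.3 and 23.2 CPM (log2 3.52, edgeR adjusted p = 0.0454, and 0.0534 when summed with Slc22a29). The Slc22a27 call held in 2 of the 12 fits. The db/db livers were the higher pair in these 3 genes. The gene that fell was Cyp4a10, and 15 of the 37 lay below 0 and 22 above. Summed over the list, the level was lower in db/db, at 8333 and 7059 CPM in db/+ against 4863 and 4221 CPM. Cyp4a10 alone made up 2954 and 1971 CPM of these sums in db/+ and 921 and 809 CPM in db/db. The sum thus follows abundant members and does not describe the list as a whole.

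Cyp2b9, the closest relative of Cyp2b13, did not pass the test, at 8.89 and 1.84 CPM in db/+ and 37.6 and 45.1 CPM in db/db (log2 2.95 with SE 2.46, edgeR adjusted p = 0.596). On water and sucrose its db/db livers ran from 0.255 to 43.7 CPM. The promoters of this pair are shown because they are almost the same sequence. Over the 250 bases before the start they share 99.2% of bases with no gap, and the 2 positions that differ, 203 and 147 bases before the start, are in capitals. Both are from RefSeq (GRCm38.p6), 5′ to 3′ on the plus strand, at chr7:26173159-26173408 for Cyp2b9 and chr7:26061245-26061494 for Cyp2b13.
Cyp2b9: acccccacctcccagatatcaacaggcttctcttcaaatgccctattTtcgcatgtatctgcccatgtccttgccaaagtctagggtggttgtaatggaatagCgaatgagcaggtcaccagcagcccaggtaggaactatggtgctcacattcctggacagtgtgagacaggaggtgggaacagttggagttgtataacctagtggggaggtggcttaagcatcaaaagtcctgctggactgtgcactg
Cyp2b13: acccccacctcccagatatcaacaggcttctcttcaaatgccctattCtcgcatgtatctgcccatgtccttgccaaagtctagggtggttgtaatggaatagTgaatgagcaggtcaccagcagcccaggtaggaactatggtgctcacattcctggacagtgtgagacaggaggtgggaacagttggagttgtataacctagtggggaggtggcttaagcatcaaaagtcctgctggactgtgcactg
They belong to a family of close relatives, and how reads were split between them was not tested. Cyp2b13 was not among the called genes found to have a copy at least 95% identical over 0.5 of the transcript.

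The Sult3a1 promoter is shown because it holds TTCNNNGAA, the form of site that STAT5 and other STAT factors recognise, in a gene listed at 0 in db/+. It is from RefSeq (GRCm38.p6, chr10:33857472-33857721, plus strand), 5′ to 3′, with the match in capitals, beginning 109 bases before the start.
Sult3a1: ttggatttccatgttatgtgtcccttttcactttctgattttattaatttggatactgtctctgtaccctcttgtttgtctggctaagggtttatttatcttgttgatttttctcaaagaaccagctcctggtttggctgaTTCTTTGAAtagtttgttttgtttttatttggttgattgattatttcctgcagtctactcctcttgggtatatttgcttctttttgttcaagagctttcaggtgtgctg
Searched on both strands, TTCNNNGAA was in 7.35% of the 12146 promoters, in 6 of 112 of the genes called higher (5.36%) and in 6 of 85 called lower (7.06%). Neither motif was in the Cyp2b pair. Here too a match describes letters only, and whether the Sult3a1 stretch is repeat sequence found elsewhere in the genome was not tested.

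Of 37 complement and coagulation genes, 5 fell and 0 rose (list median -0.47), with 30 below 0 and 7 above. The 5 were 4 complement genes and 1 coagulation gene. C3, the central complement protein, held 5426 and 6486 CPM in db/+ and 2826 and 2350 CPM in db/db (log2 -1.20 with SE 0.16, edgeR adjusted p = 0.0140). On water and sucrose, C3 ran from 3015 to 4197 CPM in db/db and overlapped the db/+ range of 4085 to 4712 CPM (log2 -0.24, edgeR adjusted p = 0.190), and the interaction did not pass (log2 -0.96, edgeR adjusted p = 0.238). C8a and C8b encode chains of the membrane attack complex. C8a held 396 and 269 against 50.7 and 60.5 CPM (log2 -2.58, edgeR adjusted p = 0.0122), and C8b 180.2 and 199 against 21.3 and 19.0 CPM (log2 -3.23, edgeR adjusted p = 0.00647). C1ra, a protease that starts the classical pathway, held 220 and 164 against 97.2 and 94.4 CPM (edgeR adjusted p = 0.0199), and the coagulation gene was F10, factor X. The C8b call held in all 12 fits without 1 library, while C3, C8a and C1ra lost theirs without db/db brazzein replicate 2 (0.0821, 0.0566 and 0.0960).

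Of 32 acute phase genes, 2 rose and 1 fell (list median 0.23). Apcs, serum amyloid P, held 74.0 and 72.0 against 182 and 200.4 CPM (log2 1.39 with SE 0.14, edgeR adjusted p = 0.00647, kept in all 12 fits). Cp, ceruloplasmin, held 432 and 445 against 820 and 908 CPM (log2 0.98, edgeR adjusted p = 0.0188, up to 0.0960 without db/db brazzein replicate 2). Serpina3k, a serine protease inhibitor of plasma, held 9935 and 8713 against 2646 and 3072 CPM (log2 -1.71, edgeR adjusted p = 0.0153, up to 0.0643 without the same library). Saa1 and Lcn2, strong markers of the acute phase, did not pass, with Saa1 at 15.2 and 34.4 against 40.2 and 146 CPM (edgeR adjusted p = 0.254) and Lcn2 at 2.92 and 32.4 against 91.9 and 212 CPM (edgeR adjusted p = 0.159). Of 26 hepatokines, 1 rose and 1 fell (list median 0.23). The higher one was Gpnmb, which is also on the macrophage list. Enho, which encodes adropin, fell from 6.49 and 16.0 CPM to 0.566 and 0.659 CPM (log2 -4.19, edgeR adjusted p = 0.0308, kept in 3 of the 12 fits). Fgf21, a hormone of fasting and fatty liver, held 1.92 and 4.44 against 15.7 and 7.98 CPM and was not called (edgeR adjusted p = 0.153).

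Of 43 genes on a list of foreign-compound P450 enzymes and their regulators, 1 rose (Cyp2b13) and 4 fell, 3 of them P450 enzymes (list median -0.44). Cyp2c23, an arachidonate epoxygenase, held 264 and 197 CPM in db/+ and 31.8 and 23.3 CPM in db/db (log2 -3.06 with SE 0.26, edgeR adjusted p = 0.00362), a call kept in all 12 fits. Cyp2c54 held 359.5 and 261 against 23.6 and 21.6 CPM (log2 -3.78 with SE 0.56, edgeR adjusted p = 0.0208, up to 0.119 without db/db brazzein replicate 2). Summed with its near-identical relatives Cyp2c37 and Cyp2c50, it had a log2 of -1.47 and was not called (edgeR adjusted p = 0.0609). Cyp1a2, the caffeine demethylase, held 603 and 314 against 85.8 and 134 CPM (log2 -2.06, edgeR adjusted p = 0.0428, kept in 1 of 12 fits). In all 3 the db/db pair was the lower one. The fourth gene that fell was Ahr, the receptor that induces Cyp1a2. Of 47 conjugating transferases, 3 rose (Sult3a1, Gstm2, Gstm5) and 3 fell (Ugt2b1, Ugt2b5, Sult2a8), with a list median of -0.02.

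Bile acid genes and gluconeogenic genes had 1 call each, both lower. Of 25 bile acid genes the call was Cyp7b1 (list median -0.24). Cyp7a1, the rate-limiting enzyme of bile acid synthesis, held 1.51 and 2.24 against 0.698 and 0.498 CPM (edgeR adjusted p = 0.140), and Cyp8b1, the sterol hydroxylase that makes cholic acid, overlapped at 336 and 290.3 against 457 and 270 CPM (edgeR adjusted p = 0.790). Of 29 genes of gluconeogenesis and amino acid catabolism, Hpd, an enzyme of tyrosine breakdown, fell from 2152 and 3434 CPM to 1212 and 949 CPM (log2 -1.37, edgeR adjusted p = 0.0437, kept in 1 of 12 fits). Pck1, the gatekeeper of gluconeogenesis, overlapped at 2594 and 5864 against 2884 and 4431 CPM (edgeR adjusted p = 0.857), and G6pc, which releases free glucose, held 132 and 82.0 against 296 and 479 CPM without passing (edgeR adjusted p = 0.276).

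**Figure D2:**
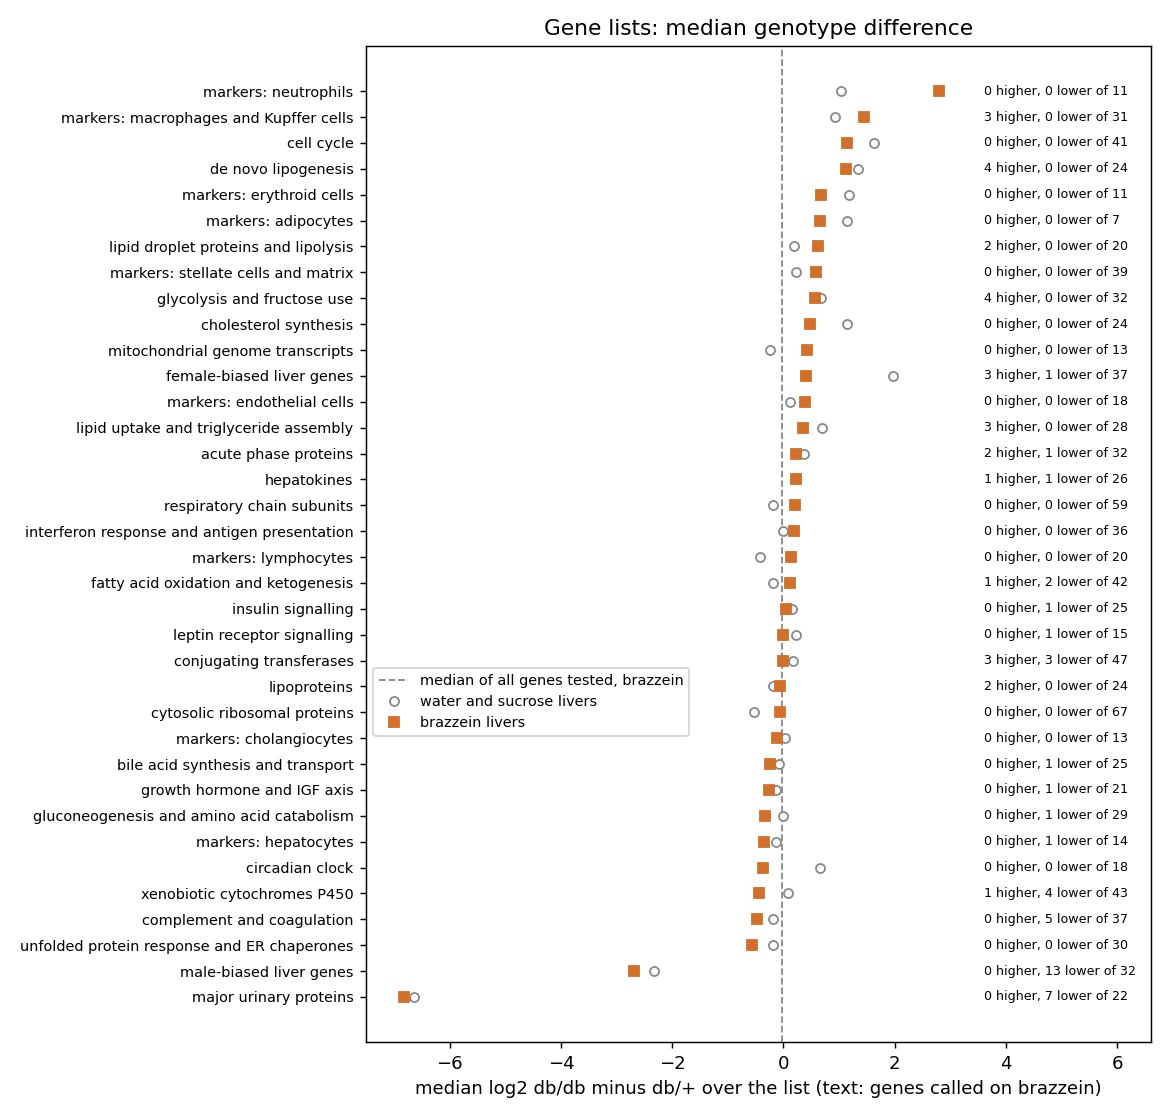
Median log2 of db/db over db/+ for each gene list with at least 5 genes tested, as squares in the brazzein livers and open circles in the water and sucrose livers, with the genes called on brazzein at the right and the median of all genes (-0.03) as a dashed line. Major urinary proteins (-6.81) and male-biased genes (-2.68) lie far to the left, and fat synthesis (1.12) to the right.

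Several lists held 0 calls by edgeR on brazzein. Their counts stand beside 17.5% of all genes tested at an unadjusted p under 0.05 and the DESeq2 total given above. Cholesterol synthesis had a median of 0.49 over 24 genes (6 at an unadjusted p under 0.05, 4 called by DESeq2), against 1.14 and 9 called higher on water and sucrose. Cell cycle genes had a median of 1.14 over 41 (12 unadjusted, 9 by DESeq2), with Mki67, the proliferation antigen, at 0.807 and 0.799 against 2.07 and 4.85 CPM (edgeR adjusted p = 0.143). Unfolded protein response genes had a median of -0.56 over 30 (15 unadjusted, 4 by DESeq2), with the chaperone Hspa5 at 597 and 741 against 395 and 360 CPM (edgeR adjusted p = 0.285).

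No gene on the lists of respiratory chain subunits, ribosomal proteins, mitochondrial transcripts, clock or interferon genes was called on brazzein by edgeR. Respiratory chain subunits had a median of 0.21 over 59, with 53 above 0 (11 unadjusted, 3 by DESeq2). Of all genes tested, 17.5% had an unadjusted p under 0.05 on brazzein, so the unadjusted counts of this list and of the interferon genes lie near that share. On water and sucrose their median was -0.19, with 17 above 0. On brazzein, 22 of the 59 did not overlap between genotypes (21 higher, 1 lower), where 43.9% of all genes tested did not. The 67 cytosolic ribosomal protein genes had a median of -0.07 (1 unadjusted, 0 by DESeq2), against -0.53 and 49 called lower on water and sucrose. The 13 mitochondrial genome transcripts were all above 0 with a median of 0.42 (0 unadjusted, 0 by DESeq2), against -0.23 with 2 of 13 above 0 on water and sucrose. The summed mitochondrial level was 102200 and 54140 CPM in db/+ and 109400 and 90040 CPM in db/db, so db/+ replicate 2 stood apart. Circadian clock genes had a median of -0.36 over 18 (1 unadjusted, 0 by DESeq2) and interferon genes of 0.18 over 36 (7 unadjusted, 2 by DESeq2). No gene of these lists had a called interaction, where 17 of all genes (0.0878%) did and 1830 (9.46%) had an unadjusted p under 0.05. The unadjusted share has a looser threshold and is no yardstick for calls. With so few calls among all genes, 0 calls in lists of this size cannot show that an interaction is absent. Over these lists and those of the preceding paragraph, the smallest adjusted p of the interaction by edgeR ran from 0.390 to 0.529.

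Of the markers of other liver cells, those of macrophages included 3 of 31 that rose and 0 that fell, with a median of 1.45 and 27 above 0. In bulk tissue, more cells of a type and more RNA per cell cannot be told apart. Trem2, a lipid receptor of macrophages in fatty liver, held 0.215 and 0.392 CPM in db/+ and 3.00 and 4.57 CPM in db/db (log2 3.63 with SE 0.53, edgeR adjusted p = 0.0198). Gpnmb, a glycoprotein of the same cells, held 0.197 and 0.196 against 3.21 and 5.36 CPM (log2 4.43 with SE 0.78, edgeR adjusted p = 0.0401). Cd63, a lysosomal membrane protein of many cell types, held 4.41 and 4.06 against 55.1 and 68.8 CPM (log2 3.87 with SE 0.44, edgeR adjusted p = 0.0103). All 3 were higher in both db/db libraries. The Cd63 call held in all 12 fits without 1 library, that of Trem2 in 9 (up to 0.0735, without db/db brazzein replicate 2) and that of Gpnmb in 3 (up to 0.117, without db/+ brazzein replicate 2). Summed over the list, the level was 278 and 171.5 CPM in db/+ and 469 and 603 CPM in db/db.

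The other marker lists had 0 calls by edgeR. The unadjusted counts below stand beside 17.5% of all genes tested. Stellate cell and matrix markers had a median of 0.59 over 39 (18 unadjusted, 13 by DESeq2) and summed levels of 1040 and 954 against 1188 and 1109 CPM, with Col1a1, a chain of type I collagen, at 3.19 and 1.84 against 8.65 and 8.51 CPM (edgeR adjusted p = 0.0859). Neutrophil markers had a median of 2.80 with all 11 above 0 (3 unadjusted, 2 by DESeq2), at summed levels of only 2.92 and 1.55 against 5.45 and 14.99 CPM. Ly6g, a defining neutrophil gene, was listed at 0 in all 4 brazzein livers. Erythroid markers summed to 938 and 1221 against 1619 and 2005 CPM (1 unadjusted, 1 by DESeq2), with the haemoglobin gene Hba-a1 at 262 and 259 against 445 and 532 CPM (edgeR adjusted p = 0.321). These sums were higher in the db/db pair, and their part in the other results was not tested. Adipocyte markers overlapped in sum, at 3977 and 6358 against 5142 and 6373 CPM, with a median of 0.65 over 7 (3 unadjusted, 2 by DESeq2), and their part in the fat storage results was not tested. Of the remaining lists, 7 of 14 pancreas and 6 of 10 skeletal muscle markers were listed at 0 in all 4 libraries.

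How far the genotype difference on brazzein resembled that of the other livers was examined in the 8 water and sucrose libraries, which the brazzein comparison does not use except for the common spread. In these, 1897 genes were called (9.8% of those tested), 995 higher (5.14%) and 902 lower (4.66%), with a median SE of 0.36 against 0.51 on brazzein. Of the 305 genes called on brazzein, 291 (95.4%) had the same sign in the other livers, as did 65.5% of all genes. The same direction was called in both for 222 genes, which are 72.8% of the brazzein calls and 11.7% of the calls in the other livers. In the other direction, 1714 of the 1897 (90.4%) had the same sign on brazzein.

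**Figure D3:**
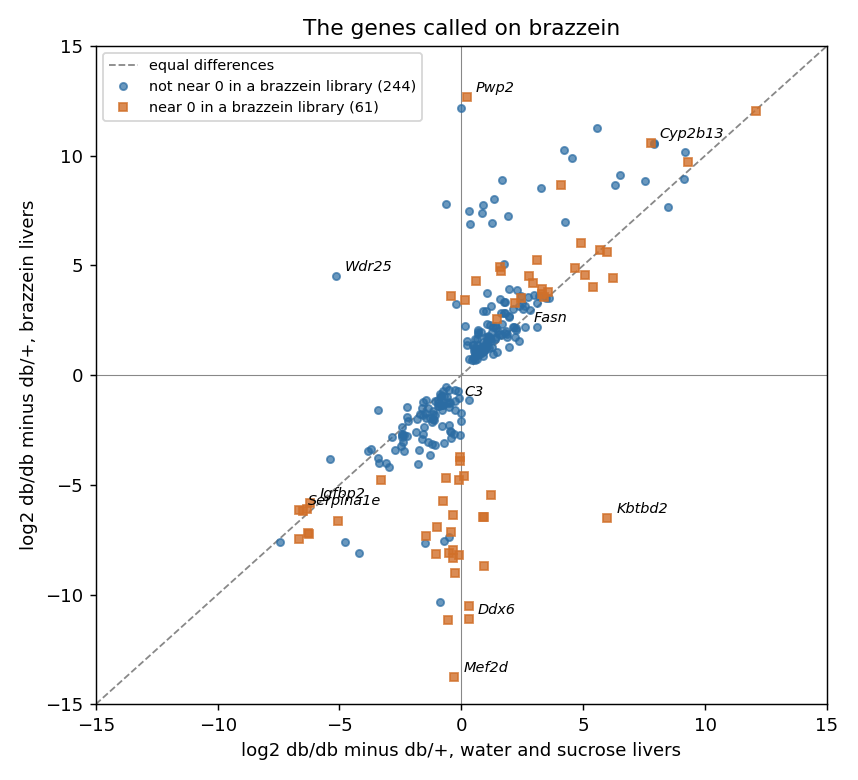
Log2 of db/db over db/+ for the 305 genes called on brazzein, in the brazzein livers (vertical) against the water and sucrose livers (horizontal), with squares for the 61 genes near 0 in a brazzein library and circles for the other 244. The dashed line marks equal differences. The median size was 2.54 on brazzein and 1.18 in the other livers, for genes chosen by their brazzein values. A column of squares such as Mef2d and Ddx6 lies far below 0 on brazzein and close to 0 elsewhere.

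The interaction, that is, the genotype difference on brazzein minus that on water and sucrose, was called for 17 genes (0.0878% of those tested), 3 higher and 14 lower. Wdr25, a gene of the WD-repeat family, held 0.108 and 0.179 CPM in db/+ and 3.96 and 2.62 CPM in db/db on brazzein. On the other drinks it was the reverse, with 1.55 to 2.69 CPM in db/+ and 0.0255 to 0.154 CPM in db/db (interaction log2 9.66 with SE 0.67, edgeR adjusted p = 0.00269). Wdr33, an mRNA 3′ end processing factor, held 22.3 and 30.9 against 3.54 and 3.66 CPM on brazzein, and its other db/db livers held 15.4 to 22.4 CPM (interaction log2 -2.45, edgeR adjusted p = 0.0255). Both genes separated the genotypes on brazzein. Ildr2, a membrane protein linked to liver lipid handling, held 33.9 and 58.0 against 8.37 and 13.5 CPM on brazzein, while its other livers held 5.68 to 10.9 CPM in db/+ and 35.7 to 78.4 CPM in db/db (interaction log2 -4.86, edgeR adjusted p = 0.0255). Lamb3, a laminin chain, held 6.67 and 2.68 against 30.4 and 28.6 CPM, and elsewhere 10.2 to 36.0 CPM in db/+ and 0.336 to 2.44 CPM in db/db (interaction log2 7.46, edgeR adjusted p = 0.0353).

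Of these 17 interaction genes, 12 were listed near 0 in a brazzein library, which means a count under 0.1 of the gene's median over the 12 livers where that median is at least 100. The rule cannot flag a gene listed so low in many livers that its median falls under 100, as for Wdr25 and Acaca. Without genes near 0 in any liver the interaction count was 4, and DESeq2 called 448. Among 11348 genes with such a median, the brazzein libraries had 469 and 149 near 0 in db/+ and 324 and 583 in db/db, against 46 to 295 in the other 8 livers. Genes near 0 in both libraries of a group and in no other library of the genotype numbered 132 in db/db brazzein and 13 in db/+ brazzein, and 2 to 9 in the other groups. These sets were defined after seeing the data. Of the 132, 24 were called on brazzein (18.2%, against 1.58% of all genes tested), and 93 were also near 0 in some db/+ library. The 132 were picked by low values in libraries that the brazzein test itself uses, so a raised share of calls is built in.

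**Figure D4:**
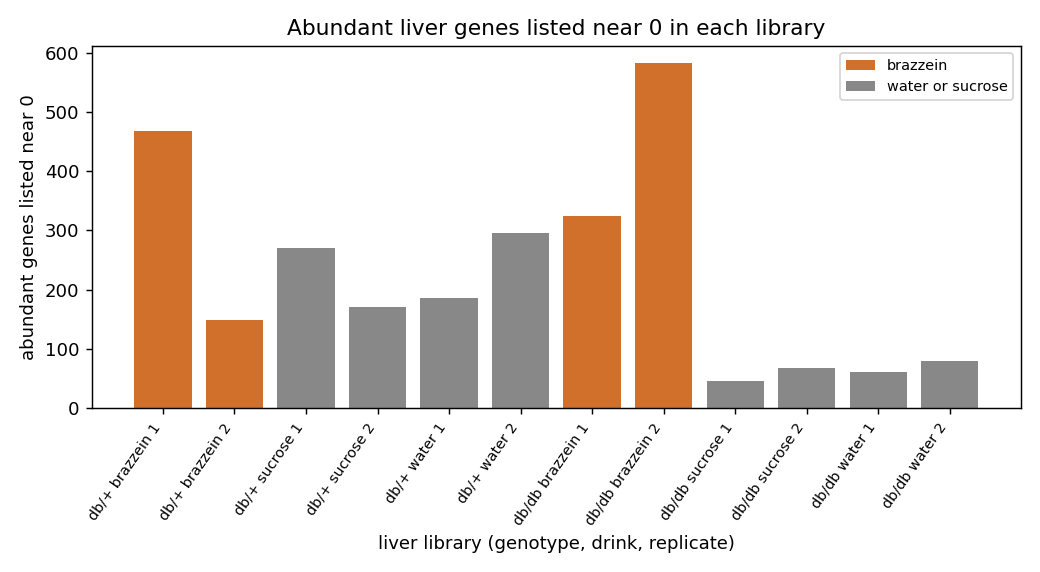
Number of abundant genes (of 11348 with a median of at least 100 estimated counts) listed under 0.1 of their median in each liver library, with the brazzein libraries in colour. The highest bars are db/db brazzein replicate 2 (583) and db/+ brazzein replicate 1 (469).

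Mef2d, a transcription factor of the MEF2 family, was listed at 0 in both db/db brazzein livers and held 26.5 and 24.0 CPM in db/+. Its other db/db livers held 12.4 to 25.0 CPM. Tent4a, a poly(A) polymerase, held 13.8 and 10.2 CPM in db/+ and 0.0395 and 0.0440 CPM in db/db on brazzein, and Ufl1, the ligase of the UFM1 modifier, 8.93 and 16.5 against 0.0132 and 0 CPM. The other db/db livers held 6.88 to 12.6 CPM of Tent4a and 8.66 to 20.3 CPM of Ufl1, so the brazzein pair stood alone within its genotype. Pwp2, a ribosome assembly factor, had the opposite pattern, listed at 0 in both db/+ brazzein livers and at 10.6 and 13.01 CPM in db/db, with 9.75 to 14.8 CPM in the other 8 livers. Kbtbd2, an adaptor that controls insulin signalling by degrading a subunit of PI3 kinase, switched between groups, and was named after its values were seen. It was listed at 0 in both db/db brazzein and both db/+ water livers, at 0.233 and 0.0979 CPM in db/+ on brazzein, and at 8.06 to 12.6 CPM in the other 6 livers. Transcripts of the 132 genes were long, with a median of 5320 bases (128 with a length) against 3165 bases over 10397 genes of at least 2 CPM. Across these 10397 genes, transcript length and the brazzein log2 had a Spearman correlation of -0.17, and 0.10 with the water and sucrose log2. How these listings arose was not tested.

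Of the 305 called genes, 61 were near 0 in a brazzein library, as were 9.09% of the 11348 abundant genes, and 244 were not. The 61 were 27 higher and 34 lower genes, and the 244 were 152 higher and 92 lower ones. Some of the 61 are low in db/db or db/+ liver on every drink, such as Igfbp2, Serpina1e and Mogat1. With genes near 0 in any liver left out, the brazzein count was 280, of which 236 were among the 305.

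Part of the higher calls are copies of 1 gene. The transcripts of 91 tested genes were at least 90% identical to Gapdh over at least 0.5 of their length, and 22 of these were called higher and 0 lower, at log2 values of 1.03 to 1.18 beside 1.15 for Gapdh. The median over all 91 was 1.08. Without these copies 283 genes remained called, 157 of them higher. Of 291 called genes found in the transcript table, 75 had a copy at least 95% identical over 0.5 of the transcript, among them members of the Mup, Serpina1 and Ugt2b families. With counts of near-identical copies summed, 195 genes were called, 115 higher and 80 lower. Of 20 named genes called on brazzein that have such a copy, 10 kept their call and 20 their direction. Reads of such genes cannot be told apart with certainty, and 61 of the called genes carried only a provisional name. The library kit named does not keep strand, so a gene and its antisense partner could not be separated either.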

How the data were processed

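Poly(A) RNA of 12 livers was sequenced from NEBNext Ultra II libraries, per the labels' protocols. The deposited per-library files hold expected counts, 1 for each of 55797 gene names, which were rounded to whole numbers. The submitters' processing notes name bcl2fastq and the build GRCm39, and the aligner and counter were not given in the sources used here. The headers of the db/+ brazzein files carry each other's replicate number, an exchange within 1 group.

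In R 4.3.3, edgeR 4.0.16 fitted 6 groups of 2 libraries (TMM, filterByExpr with a minimum count of 10, 6 residual degrees of freedom, Benjamini-Hochberg adjustment over 19352 genes). DESeq2 1.42.0, RLE factors, no filter, a replicate block, left-out libraries and summed counts of near-identical copies were alternatives. Copies were found with BLAST 2.17.0 among GENCODE transcripts and promoters taken from RefSeq. The steps were tested on simulated data. No counting interval is given because the counts are estimates.

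The members, the 38 gene lists and the rule for named genes were chosen with earlier results of these data known. The rule took a panel, the 10 highest and 10 lowest called genes with an official symbol and at least 1 CPM, up to 4 called members per list (else the smallest p), 10 interaction genes and 6 genes near 0. Copies, lengths, motifs and shown promoters were chosen after seeing the data. Part of the panel is not reported here.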

Additional observations from a re-analysis of the deposited data

Results flagged for a closer look

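The genotype difference on brazzein differed from that on water and sucrose, by the interaction test of edgeR, for 17 genes at an adjusted p under 0.05. The interaction value of Pwp2 was 12.45 on the log2 scale, with both db/+ brazzein livers listed at 0. That of Mef2d was -13.48, with both db/db brazzein livers listed at 0. Fitted values of genes listed at 0 depend on the prior count and are no bounds. Tent4a had -7.61, Ufl1 -10.82, Unkl -7.14 and Zfp7 -4.05, each with both db/db brazzein livers near 0. Summed with its near-identical copy Gm49527, Zfp7 had an interaction of -1.24 (edgeR adjusted p = 0.441). Wdr25 (9.66) and Lamb3 (7.46) were higher and Ildr2 (-4.86) lower in db/db on brazzein, with the opposite order in the other livers. Wdr33 (-2.45) was low only in the db/db brazzein pair among the 12 livers.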

How the results depend on the processing

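On brazzein, 305 genes were called, against 1912 by DESeq2, 194 with a replicate block and 0 in a fit of the 4 brazzein livers alone, for which the loss of residual degrees of freedom and of genes tested is part of that fit's construction. Leaving out 1 library gave 131 to 389 calls on brazzein, the lowest without db/db brazzein replicate 2 and the highest without db/db brazzein replicate 1, and counts of 147 to 194 without any 1 of the sucrose or db/db water libraries. Without db/db brazzein replicate 2 and db/+ brazzein replicate 1 together, an alternative chosen after seeing the data, 236 were called, of which 80 were among the 305. With counts of near-identical copies summed, also chosen after seeing the data, 195 were called, where the merging of copies that were called one by one is part of the construction. Where a lone library is left in a group, it is assumed to vary like the others.

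On water and sucrose, 1897 genes were called, against 3839 by DESeq2 and 423 to 2349 without 1 library. The interaction count was 17, against 448 by DESeq2, 4 without genes near 0, 132 without the 2 brazzein libraries together and 11 to 172 without 1 library. The cause of these shifts was not tested. RLE factors (302 on brazzein) and no filter (242) stayed within 1.5 times of the count.

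By the replicate numbers of the titles, the libraries showed no clear pairing. Over 15 pairs of groups, 0 correlations of the replicate differences were over 0.1 (range -0.10 to 0.09). The headers of the db/+ brazzein files exchange these numbers, which would turn the sign of that group's correlations. Among them was the lowest, -0.1048 with db/+ water. The replicate block used the titles' numbers as well. With the replicate block, 47 of the 67 named genes called on brazzein kept their call. Of these 67, 24 were called in all 12 fits without 1 library, 67 by DESeq2 and 66 with RLE factors.

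Some uncalled genes changed sign. Without 1 library, the log2 ran from -0.58 to 0.20 for Acaca, -0.33 to 1.31 for Apob, -0.21 to 0.55 for Cyp8b1, -0.68 to 0.51 for Pck1 and -0.073 to 1.34 for Srebf1. Without the 2 brazzein libraries together, Apob was at -0.17 and Srebf1 at -0.55. Of 342 list medians under the alternatives, 22 changed sign.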

Other observations

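Some of the genes with the steepest differences on brazzein belong to no list described above. Meltf, which encodes the iron-binding surface protein melanotransferrin, was listed at 0 in both db/+ brazzein livers and at 2.50 and 2.99 CPM in db/db (edgeR adjusted p = 0.00415). Kctd6, an adaptor of a ubiquitin ligase, was listed at 0 in db/+ and at 2.87 and 5.96 CPM in db/db (edgeR adjusted p = 0.0110). Hr, a nuclear corepressor, held 0.305 and 0.212 against 2.19 and 4.75 CPM (log2 3.74, edgeR adjusted p = 0.0159). All 3 were higher in both db/db libraries. Among lower genes, Ces3b, a carboxylesterase, held 383 and 286 CPM in db/+ and 11.9 and 28.2 CPM in db/db (log2 -4.06, edgeR adjusted p = 0.0110, and -2.25 with 0.0141 when summed with its near-identical relative Ces3a). Phlda1, a pleckstrin homology protein, held 66.9 and 74.4 against 9.03 and 4.13 CPM (log2 -3.42, edgeR adjusted p = 0.0189), and Serpine2, a protease inhibitor, 7.71 and 8.92 against 0.816 and 0.762 CPM (log2 -3.39, edgeR adjusted p = 0.0110). Meltf, Kctd6 and Ces3b were called in all 12 fits that left out 1 library and the other 3 in 11, with adjusted p of 0.0618 for Hr without db/+ brazzein replicate 2, and of 0.0781 for Phlda1 and 0.0624 for Serpine2 without db/db brazzein replicate 2.

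mt-Rnr2, the large mitochondrial ribosomal RNA, was named after its values were seen. It fell from 5443 and 3408 CPM in db/+ to 1509 and 1684 CPM in db/db on brazzein (log2 -1.47, SE 0.21, edgeR adjusted p = 0.0198), while 0 of the 13 mitochondrial protein-coding transcripts were called by edgeR on brazzein, 0 at an unadjusted p under 0.05 and 0 by DESeq2. The difference is not particular to brazzein, as the share of mitochondrial ribosomal RNA was also lower in db/db on water and sucrose.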
